A study of Homo sapiens with 21 samples.

Results

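Polycomb, BAF and NuRD/LSD1 are protein complexes that control access to chromatin, and 55 genes for their subunits were followed across the series by symbol. Of these, 54 could be joined to a row of the deposited table of 57820 genes: 9 of Polycomb repressive complex 2 (PRC2), 8 of 9 of Polycomb repressive complex 1 (PRC1), 22 of the BAF family and 15 of NuRD and its LSD1 and CoREST partners. PCGF2 was not joined and is not analysed here. Genes that reached 10 on the linear scale in fewer than 3 libraries were left untested, which kept 53 members. ACTL6B, the neuron-specific actin-related BAF subunit, did not pass, with log2 values of 0.66 to 1.3 over all libraries.

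The libraries come from A673, an established Ewing sarcoma cell line that carries the fusion gene EWS/FLI, and were sequenced from total RNA. Control cells carried RNAi against luciferase and an empty vector (n = 4, replicates 1, 2, 3 and 5), and knockdown cells carried RNAi against EWS/FLI and an empty vector (n = 5). The other groups carried the EWS/FLI RNAi with a vector for full-length type IV EWS/FLI (wild type, n = 5), for the delta 22 mutant (n = 4, replicates 1 to 4) or for the mut9 mutant (n = 3, replicates 3 to 5). All were stably infected and selected for 4 days before the pMSCV-hygro rescue vector was added, and replicates carry the number of their labelled batch. The labels do not say what the mutants change, and all groups share a single cell line. Nothing says that replicates were separate cultures, so p-values measure the spread between these libraries, which may be technical.

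PRC2 methylates histone H3 and PRC1 ubiquitinates histone H2A, and both keep developmental genes silent. BAF complexes use ATP to move nucleosomes and open enhancers, while NuRD joins a nucleosome remodeller to histone deacetylases and works with the histone demethylase LSD1. Earlier work in Ewing sarcoma described EZH2 as a gene activated by EWS/FLI, BAF as a complex that the EWS part of the fusion recruits, and NuRD with LSD1 as partners at genes that the fusion silences. The partnerships are between proteins, and what follows is the RNA of the subunits.

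Values are the normalized log2 values the authors deposited, and a difference is the mean log2 value of the group named first minus that of the other, ± its standard error. The adjusted p is the Benjamini-Hochberg value of limma over all 18040 genes tested, 2-sided; "rose", "fell" and "called" stand for a value under 0.05. Members described closely are a set central to each complex and called members with large differences whose groups did not overlap. For the latter, separation in the comparison that chose them is part of the choice. The median residual standard deviation was 0.114 log2 for the 53 members and 0.207 for all genes tested, and the table keeps no read totals. FLI1, whose reads can come from the fusion, an intact allele and the constructs, lay at 11.56 to 11.69 in control, 9.59 to 9.99 in knockdown, 10.35 to 10.69 in wild-type, 10.99 to 11.51 in delta 22 and 10.1 to 10.39 in mut9 libraries. Of the markers of the line, NR0B1, NKX2-2, STEAP1 and PRKCB were above log2 6.7 in every library, while CD99 is listed at 0 throughout. PTPRC, CD3E, EPCAM, KRT20 and VWF, markers of blood, epithelial and endothelial cells, did not exceed 4.5. A mean over 19 tested proliferation markers was 13.52 to 13.59 in control, 12.85 to 13.03 in knockdown, 12.96 to 13.23 in wild-type, 12.62 to 13.08 in delta 22 and 13.04 to 13.1 in mut9 libraries, and its part in the results was not tested. SUZ12 and PHC1 are uncertain because SUZ12P1 (mean log2 7.6) and PHC1P1 (6.7) can share their reads, RBBP4, BRD7 and SMARCE1 have several pseudogene copies at 4.9 or below, and the strand setting of the counting is not given in the sources used here, so reads of HDAC2 and HDAC2-AS2 (5.2) may not be told apart.

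Knockdown against control asks which subunits depend on EWS/FLI. The NuRD ATPase CHD3, the PRC1 reader CBX2, the BAF scaffold SMARCC1, the CoREST scaffold RCOR1 and CBX8 fell at least 2-fold, and the PRC1 subunit PHC2 rose by as much. In all, 29 of 53 members fell and 6 rose. Of all genes tested 34% fell and 35.5% rose, and the members' shares were 54.7% and 11.3%. The share called in either direction was 66% for the members and 69.5% for all genes, and 6 members (11.3%) against 26.2% of all genes changed at least 2-fold. The groups did not overlap for 33 members (62.3%, against 59.4% of all genes), and among the 12166 genes with a linear mean of at least 100, which hold 52 of the members, 74.4% were called. The members' median difference was -0.20, that of all genes -0.01, and with quantile scaling, which gives every library the same distribution and moved the latter to -0.20, 37 members fell and 6 rose, while 46.2% of all genes fell and 28.3% rose. The 8 falls that this scaling added were those of RING1, CBX7, PHC1, SMARCE1, BRD9, MTA2, MBD3 and RBBP7 (adjusted p = 0.00315 to 0.0485). All 35 called members had the same sign in each of the 4 batches that held both groups. The calls rest on the same values, so such agreement, here and in the comparisons below, is no separate support. Of the 19 proliferation markers, 17 fell and 0 rose in the same comparison, with the same counts at an unadjusted p under 0.05.

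**Figure D1:**
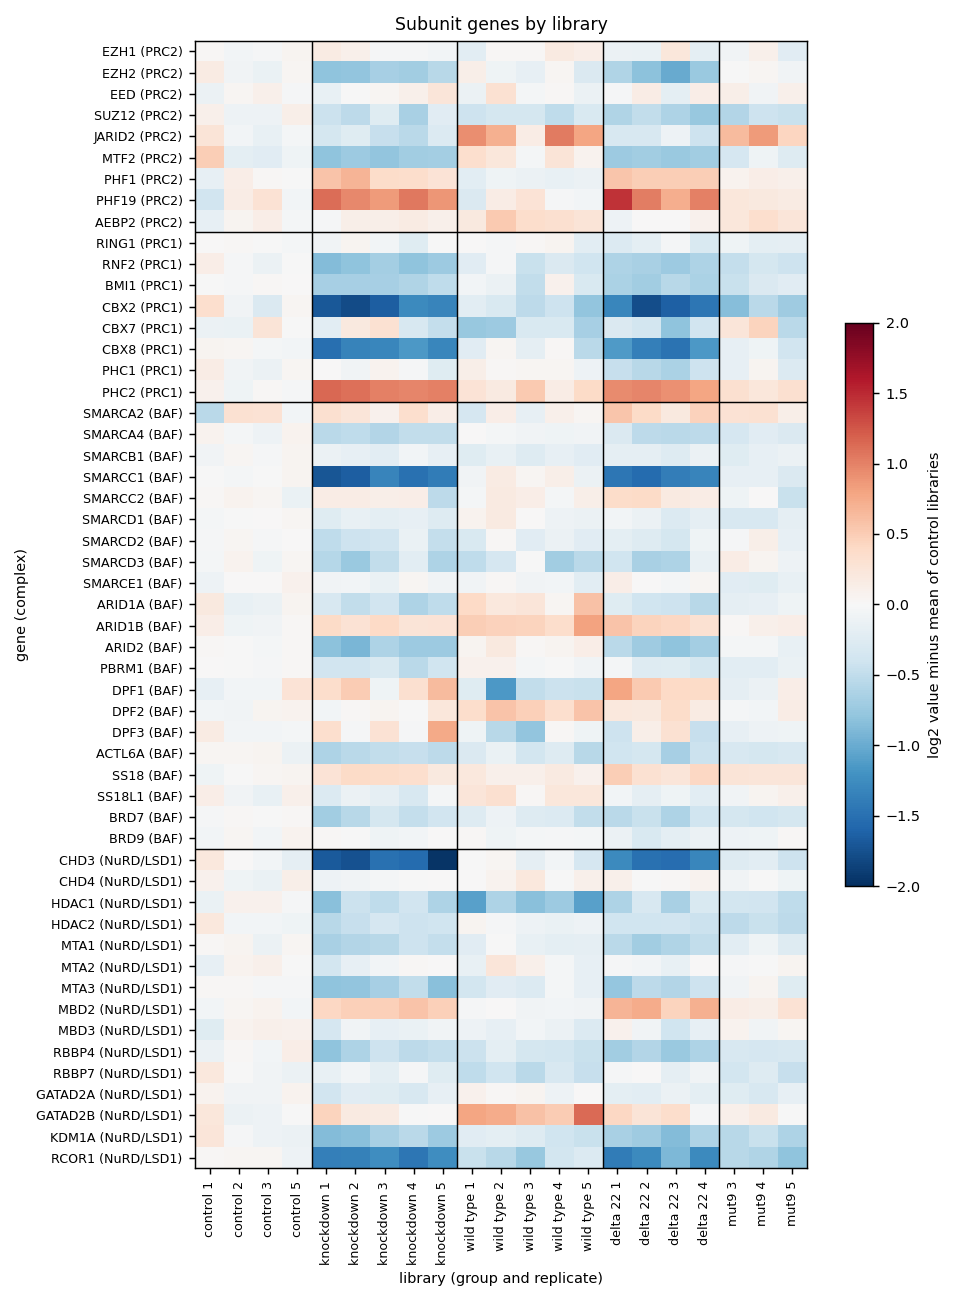
Heat map of the 53 tested subunit genes (rows, ordered by complex) in the 21 libraries (columns, ordered by group); colour is the log2 value minus the mean of the 4 control libraries, from -2 (blue) to 2 (red). Knockdown and delta 22 columns share dark blue rows for CBX2, CBX8, SMARCC1, CHD3 and RCOR1 and red rows for PHF19 and PHC2, and wild-type and mut9 columns are paler there.

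In PRC2, the core enzyme changed while its paralogue did not pass. EZH2, the main methyltransferase, read 13.3, 13.07, 13.0 and 13.18 in control and 12.34, 12.35, 12.48, 12.44 and 12.59 in knockdown libraries. The groups did not overlap, and EZH2 fell (-0.69 ± 0.09, adjusted p = 6.35e-07). EZH1, the alternative catalytic subunit, did not pass (0.04, 95% interval -0.16 to 0.23, adjusted p = 0.75). Of the other core subunits, SUZ12 fell from 10.54, 10.34, 10.34 and 10.56 to 10.02, 9.92, 10.2, 9.79 and 10.22 (-0.42 ± 0.09, adjusted p = 0.000311), and EED, which binds methylated H3, did not pass (0.05, 95% interval -0.15 to 0.24, adjusted p = 0.675).

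The accessory subunits of PRC2, which sort the complex into alternative forms and guide it to chromatin, moved in opposite directions. MTF2, PHF1 and PHF19 are the Polycomb-like proteins that compete for the same place in the complex. MTF2 had 12.55, 11.86, 11.83 and 11.97 in control and 11.25, 11.33, 11.27, 11.35 and 11.38 in knockdown libraries and fell (-0.74 ± 0.11, adjusted p = 6.2e-06). PHF19 had 10.23, 10.77, 10.91 and 10.57 in control and 11.74, 11.58, 11.47, 11.68 and 11.51 in knockdown libraries and rose (0.98 ± 0.14, adjusted p = 2.86e-06). PHF1 moved the same way as PHF19, from 10.06, 10.36, 10.25 and 10.22 to 10.79, 10.9, 10.59, 10.58 and 10.5 (0.45 ± 0.07, adjusted p = 1.72e-05). For these 3 genes the groups did not overlap, which was a condition for choosing MTF2. JARID2, which belongs to the other form of PRC2, fell by less, from 11.94, 11.63, 11.53 and 11.64 to 11.34, 11.45, 11.22, 11.15 and 11.41 (-0.37 ± 0.14, adjusted p = 0.0218), a call lost without control replicate 1 or knockdown replicate 4 (adjusted p = 0.0895 and 0.0525). AEBP2, its partner there, did not pass (0.09, 95% interval -0.06 to 0.23, adjusted p = 0.278).

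PRC1 held 3 of the 6 members that changed at least 2-fold. CBX proteins read the methyl mark that PRC2 writes. CBX2 had 11.89, 11.48, 11.27 and 11.59 in control and 9.86, 9.77, 9.91, 10.29 and 10.23 in knockdown libraries, a gap of more than 0.9 between the nearest libraries, and fell (-1.55 ± 0.14, adjusted p = 8.78e-09). CBX8 had 9.44, 9.43, 9.36 and 9.34 and 7.88, 8.05, 8.08, 8.25 and 8.09, with all knockdown libraries lower, and fell (-1.32 ± 0.11, adjusted p = 3.6e-09). Separation of the groups was a condition for choosing CBX2 and CBX8 here. CBX7 is lowly expressed here, at 5.04 to 6.29 over all libraries, and did not pass (-0.10, 95% interval -0.52 to 0.32, adjusted p = 0.669).

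The ligase RNF2 fell (-0.78 ± 0.07, adjusted p = 1.15e-08), whereas RING1, its paralogue, did not pass (-0.07, 95% interval -0.22 to 0.08, adjusted p = 0.385). BMI1, the partner of these ligases and a known proto-oncogene, went from 11.98, 11.96, 12.02 and 12.0 in control to 11.33, 11.33, 11.33, 11.39 and 11.48 in knockdown libraries (-0.62 ± 0.08, adjusted p = 1.89e-06). PHC proteins assemble PRC1 into larger bodies. PHC2 stood at 12.78, 12.6, 12.71 and 12.66 in control and 13.83, 13.79, 13.69, 13.67 and 13.69 in knockdown libraries, with all of the latter higher (1.05 ± 0.07, adjusted p = 8.41e-11), and PHC1 did not pass (-0.06, 95% interval -0.22 to 0.11, adjusted p = 0.543).

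In the BAF family, 12 of 21 tested members fell and 2 rose (66.7% called, beside 69.5% of all genes). SMARCC1, which with SMARCC2 forms the scaffold on which the complex is built, read 13.99, 13.97, 14.0 and 14.06 in control and 12.3, 12.36, 12.68, 12.52 and 12.61 in knockdown libraries and fell (-1.51 ± 0.08, adjusted p = 2.04e-12). This was the largest fall in the family. SMARCC2 did not pass (0.01, 95% interval -0.24 to 0.25, adjusted p = 0.971). It read 11.75 in knockdown replicate 5 and 12.39 to 12.42 in the other knockdown libraries. The ATPase SMARCA4 had 14.08, 13.98, 13.91 and 14.09 in control and 13.48, 13.51, 13.43, 13.53 and 13.53 in knockdown libraries and fell (-0.52 ± 0.05, adjusted p = 4.76e-08), while the alternative ATPase SMARCA2 did not pass (0.22, 95% interval -0.06 to 0.51, adjusted p = 0.157), with an adjusted p of 0.05 without control replicate 2.

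The subunits that define each kind of BAF complex did not move together. ARID1A and ARID1B are alternative subunits of canonical BAF. ARID1A fell from 11.96, 11.61, 11.65 and 11.82 to 11.44, 11.26, 11.37, 11.14 and 11.25 (-0.47 ± 0.10, adjusted p = 0.000262), and ARID1B rose from 11.71, 11.5, 11.51 and 11.61 to 11.96, 11.87, 11.98, 11.84 and 11.86 (0.32 ± 0.08, adjusted p = 0.00106). In PBAF, which carries a different targeting module, ARID2 fell from 12.66, 12.63, 12.59 and 12.65 to 11.81, 11.72, 12.01, 11.91 and 11.9 (-0.76 ± 0.06, adjusted p = 1.13e-09), and PBRM1 (-0.40 ± 0.06, adjusted p = 6.01e-06) and BRD7 (-0.49 ± 0.07, adjusted p = 5.31e-06) fell too. BRD9, which marks non-canonical BAF, read 11.16, 11.26, 11.17 and 11.3 in control and 11.24, 11.22, 11.14, 11.17 and 11.23 in knockdown libraries and did not pass (-0.03, 95% interval -0.13 to 0.08, adjusted p = 0.68).

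SS18, the subunit fused to SSX in synovial sarcoma, rose from 12.39, 12.48, 12.52 and 12.54 to 12.76, 12.87, 12.85, 12.82 and 12.68 (0.32 ± 0.05, adjusted p = 3.37e-05). SMARCB1, the subunit lost in rhabdoid tumours, read 12.38, 12.48, 12.42 and 12.5 in control and 12.33, 12.28, 12.24, 12.39 and 12.28 in knockdown libraries, which overlapped, and fell slightly (-0.15 ± 0.05, adjusted p = 0.00887). The remaining falls in the family were SMARCD1, SMARCD2, SMARCD3, ACTL6A and SS18L1, between -0.53 and -0.19. The call of SS18L1 was lost without knockdown replicate 1, 3 or 4 or control replicate 1 or 5 (adjusted p = 0.0536 to 0.123). The PHD-finger subunits DPF1, DPF2 and DPF3, and SMARCE1, did not pass; DPF1 was called higher without knockdown replicate 3 or control replicate 5 (adjusted p = 0.0213 and 0.0419).

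In NuRD and its partners, 9 of 15 members fell and 1 rose (66.7% called, beside 69.5% of all genes). CHD3 and CHD4 are alternative ATPases of NuRD. CHD3 read 14.23, 14.03, 13.97 and 13.84 in control and 12.33, 12.27, 12.53, 12.48 and 12.06 in knockdown libraries, and it fell further than any other member (-1.69 ± 0.10, adjusted p = 1.79e-11). CHD4 read 14.49, 14.32, 14.28 and 14.53 and 14.3, 14.33, 14.36, 14.4 and 14.41, with overlapping groups, and did not pass (-0.05, 95% interval -0.16 to 0.07, adjusted p = 0.493).

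Both deacetylases fell, HDAC1 from 13.23, 13.46, 13.45 and 13.34 to 12.53, 12.94, 12.87, 12.99 and 12.76 (-0.55 ± 0.11, adjusted p = 0.000136) and HDAC2 from 13.37, 13.1, 13.1 and 13.08 to 12.6, 12.7, 12.82, 12.75 and 12.77 (-0.44 ± 0.06, adjusted p = 2.47e-06). KDM1A, the gene of LSD1, read 14.29, 14.02, 13.94 and 13.92 in control and 13.18, 13.21, 13.39, 13.5 and 13.31 in knockdown libraries and fell (-0.73 ± 0.08, adjusted p = 1.94e-07). RCOR1, which couples LSD1 to deacetylases and nucleosomes, read 13.12, 13.14, 13.13 and 12.99 and 11.73, 11.75, 11.86, 11.65 and 11.85 and fell (-1.33 ± 0.10, adjusted p = 3.19e-10). For all 4 genes every knockdown library was below every control library.

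The MTA scaffolds divided, with MTA1 (-0.54 ± 0.06, adjusted p = 2.78e-07) and MTA3 (-0.72 ± 0.08, adjusted p = 2.8e-07) lower and MTA2 not called (-0.11, 95% interval -0.29 to 0.07, adjusted p = 0.254). MBD2, which brings NuRD to methylated DNA, rose (0.48 ± 0.06, adjusted p = 2.74e-07), and MBD3, its alternative, did not pass (-0.16, 95% interval -0.34 to 0.03, adjusted p = 0.121), though it did with quantile scaling and without control replicate 1 (adjusted p = 0.00315 and 0.0206). The histone chaperone RBBP4, shared by NuRD and PRC2, fell (-0.57 ± 0.07, adjusted p = 9.25e-07), as did GATAD2A (-0.27 ± 0.06, adjusted p = 0.000247). RBBP7 did not pass, but it was lower with the batch number as a block (log2 -0.16, adjusted p = 0.0168), with trimmed-mean rescaling (0.0407) and without control replicate 5 (0.0447). GATAD2B did not pass.

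Promoter sequences are shown for members with large or opposite changes, because the series is about binding of EWS/FLI to GGAA microsatellites. RefSeq windows of 300 bases (250 before and 50 after a gene start, build GRCh38.p14) matched 49 of the 55 members; the first listed window is given, 5′ to 3′ on the gene's strand, with GGAA or its complement TTCC in capitals. SMARCC1, CBX2 and CBX8, which fell at least 2-fold after knockdown, were among the members without a window. EZH2 (chr7:148884242-148884541, minus strand), CHD3 (chr17:7888539-7888838, plus strand) and RCOR1 (chr14:102592399-102592698, plus strand) fell after knockdown. PHF19 (chr9:120868862-120869161, minus strand) and PHC2 (chr1:33431046-33431345, minus strand) rose.
EZH2: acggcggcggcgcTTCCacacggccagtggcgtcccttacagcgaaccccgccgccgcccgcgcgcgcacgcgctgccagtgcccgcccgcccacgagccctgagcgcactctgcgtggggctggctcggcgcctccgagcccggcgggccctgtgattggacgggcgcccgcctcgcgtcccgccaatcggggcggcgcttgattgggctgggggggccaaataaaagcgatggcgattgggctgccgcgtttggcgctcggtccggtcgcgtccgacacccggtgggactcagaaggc
CHD3: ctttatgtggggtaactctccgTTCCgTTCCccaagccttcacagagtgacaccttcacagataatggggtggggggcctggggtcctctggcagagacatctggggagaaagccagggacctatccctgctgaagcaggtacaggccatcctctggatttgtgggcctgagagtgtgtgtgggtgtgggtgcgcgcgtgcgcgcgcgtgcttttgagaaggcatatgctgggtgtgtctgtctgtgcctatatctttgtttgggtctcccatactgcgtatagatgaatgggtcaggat
RCOR1: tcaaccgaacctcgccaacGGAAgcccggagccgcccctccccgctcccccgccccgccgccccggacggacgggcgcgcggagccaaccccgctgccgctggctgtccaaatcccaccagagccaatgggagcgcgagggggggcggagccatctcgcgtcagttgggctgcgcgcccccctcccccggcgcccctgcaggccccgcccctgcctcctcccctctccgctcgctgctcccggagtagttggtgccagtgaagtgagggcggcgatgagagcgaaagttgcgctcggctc
PHF19: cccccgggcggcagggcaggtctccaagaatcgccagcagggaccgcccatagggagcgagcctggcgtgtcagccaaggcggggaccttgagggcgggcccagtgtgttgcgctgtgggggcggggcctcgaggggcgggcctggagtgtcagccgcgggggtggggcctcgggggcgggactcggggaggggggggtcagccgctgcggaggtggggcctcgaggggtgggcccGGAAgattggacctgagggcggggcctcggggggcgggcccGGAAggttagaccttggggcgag
PHC2: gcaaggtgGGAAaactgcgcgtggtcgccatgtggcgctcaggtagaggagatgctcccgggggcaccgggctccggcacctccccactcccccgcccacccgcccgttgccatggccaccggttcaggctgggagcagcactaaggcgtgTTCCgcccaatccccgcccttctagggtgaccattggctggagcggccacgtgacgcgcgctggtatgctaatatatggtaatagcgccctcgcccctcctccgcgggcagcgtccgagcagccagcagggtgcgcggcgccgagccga
Searched on both strands, GGAA occurred in 70 of the 73 windows of the members (95.9%), against 95.5% of all 35116 windows. Tandem GGAAGGAA, which contains GGAA, was in 2 member windows (2.74%, against 3.67% of all), and these belong to SMARCA2 and BRD7. The longer ETS-type letters CCGGAAG, which also contain GGAA, were in 10 member windows (13.7% against 10.3%). There were 2 copies in the PHF19 window shown and 0 in the windows shown for EZH2, CHD3, RCOR1 and PHC2. The other window of PHF19 held 0 copies and that of PHC2 held 1, so this contrast depends on the window. The E2F-type letters TTTNNCGC were in 9 (12.3% against 6.89%), among them the EZH2 window shown. The other EZH2 window held 0 copies, and the PHF19 window not shown held 2. These matches describe letters in short windows and not bound sites.

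The wild-type rescue asks which subunits respond when intact EWS/FLI is returned. CHD3, SMARCC1, CBX8, CBX2 and the PRC2 partner JARID2 rose at least 2-fold over knockdown. Of 53 members 29 rose and 10 fell, 54.7% and 18.9%, against 29.6% and 32.3% of all genes tested; in either direction it was 73.6% against 61.8% (66% of genes with a mean of at least 100). At least 2-fold changes were 9.43% of members and 19.5% of all genes, and the groups did not overlap for 56.6% and 42.5%. With quantile scaling 33 rose and 7 fell, beside 39.3% and 26.7% of all genes. The knockdown libraries serve in this comparison and in the one against control, so opposite signs in the 2 are not independent. Within batches, 35 of the 39 called members kept their sign in all 5, and CBX7, DPF3, ACTL6A and BRD7 did so in 4. Among the proliferation markers 8 of 19 rose and 0 fell in limma, also at an unadjusted p under 0.05.

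EZH2 rose with the wild-type construct, to 13.26, 13.05, 12.98, 13.18 and 12.85 (0.62 ± 0.08, adjusted p = 1.97e-06), and these libraries overlapped with control, at 13 to 13.3. JARID2 reached 12.62, 12.39, 11.83, 12.73 and 12.47, and its difference was 1.10 ± 0.13 (adjusted p = 5.62e-07). MTF2 rose to 12.39, 12.28, 12.01, 12.31 and 12.12 (0.91 ± 0.10, adjusted p = 3.34e-07). PHF19 and PHF1 fell, PHF19 to 10.33, 10.77, 10.9, 10.59 and 10.56 (-0.97 ± 0.13, adjusted p = 2.49e-06) and PHF1 to 10.01, 10.13, 10.1, 10.07 and 10.11 (-0.59 ± 0.07, adjusted p = 4.65e-07). SUZ12 did not pass (0.03, 95% interval -0.14 to 0.20, adjusted p = 0.769).

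In PRC1, CBX2 rose to 11.34, 11.26, 11.03, 11.14 and 10.77 (1.10 ± 0.13, adjusted p = 6.9e-07) and CBX8 to 9.17, 9.43, 9.21, 9.41 and 8.85 (1.14 ± 0.11, adjusted p = 2.11e-08). PHC2 fell to 12.96, 12.86, 13.21, 12.83 and 13.07 (-0.75 ± 0.06, adjusted p = 7.88e-09). BMI1 rose to 11.93, 11.88, 11.5, 12.08 and 11.69 (0.44 ± 0.08, adjusted p = 7.27e-05). For each of these genes the wild-type and knockdown libraries did not overlap, which was a condition for choosing CBX2 and CBX8.

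In the BAF family SMARCC1 rose to 13.94, 14.17, 14.05, 14.12 and 13.88 (1.54 ± 0.07, adjusted p = 3.49e-12) and ARID2 to 12.68, 12.82, 12.65, 12.69 and 12.76 (0.85 ± 0.06, adjusted p = 2.53e-10). SMARCA4 (0.47 ± 0.05, adjusted p = 1.31e-07) and ARID1A (0.76 ± 0.09, adjusted p = 6.12e-07) rose as well. DPF1, at a low level, fell from 7.96, 8.11, 7.52, 7.92 and 8.24 to 7.36, 6.46, 7.12, 7.18 and 7.16 (-0.89 ± 0.16, adjusted p = 7.1e-05), while its widely expressed relative DPF2 rose from 11.97, 12.05, 12.08, 12.02 and 12.26 to 12.38, 12.59, 12.51, 12.36 and 12.59 (0.41 ± 0.06, adjusted p = 1.86e-05). DPF1 is a neuronal subunit of BAF. The call of SS18 (-0.18 ± 0.05, adjusted p = 0.00464) was lost with quantile scaling (log2 -0.06, adjusted p = 0.328).

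In NuRD, CHD3 rose to 14.01, 14.05, 13.83, 13.96 and 13.68 (1.57 ± 0.09, adjusted p = 6.61e-11) and RCOR1 to 12.65, 12.54, 12.34, 12.73 and 12.82 (0.85 ± 0.09, adjusted p = 1.29e-07). KDM1A rose to 13.81, 13.84, 13.79, 13.65 and 13.6 (0.42 ± 0.08, adjusted p = 0.000105) and HDAC2 to 13.22, 13.14, 13.06, 13.03 and 13.06 (0.37 ± 0.06, adjusted p = 1.15e-05). HDAC1 did the opposite of its paralogue and fell to 12.28, 12.75, 12.54, 12.65 and 12.28 (-0.32 ± 0.10, adjusted p = 0.00996), a call that quantile scaling did not keep (log2 -0.19, adjusted p = 0.068). RBBP7 fell (-0.31 ± 0.07, adjusted p = 0.000457), and GATAD2B, which did not pass after knockdown, rose to 11.28, 11.23, 11.08, 11.01 and 11.63 (0.59 ± 0.11, adjusted p = 0.00017).

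**Figure D2:**
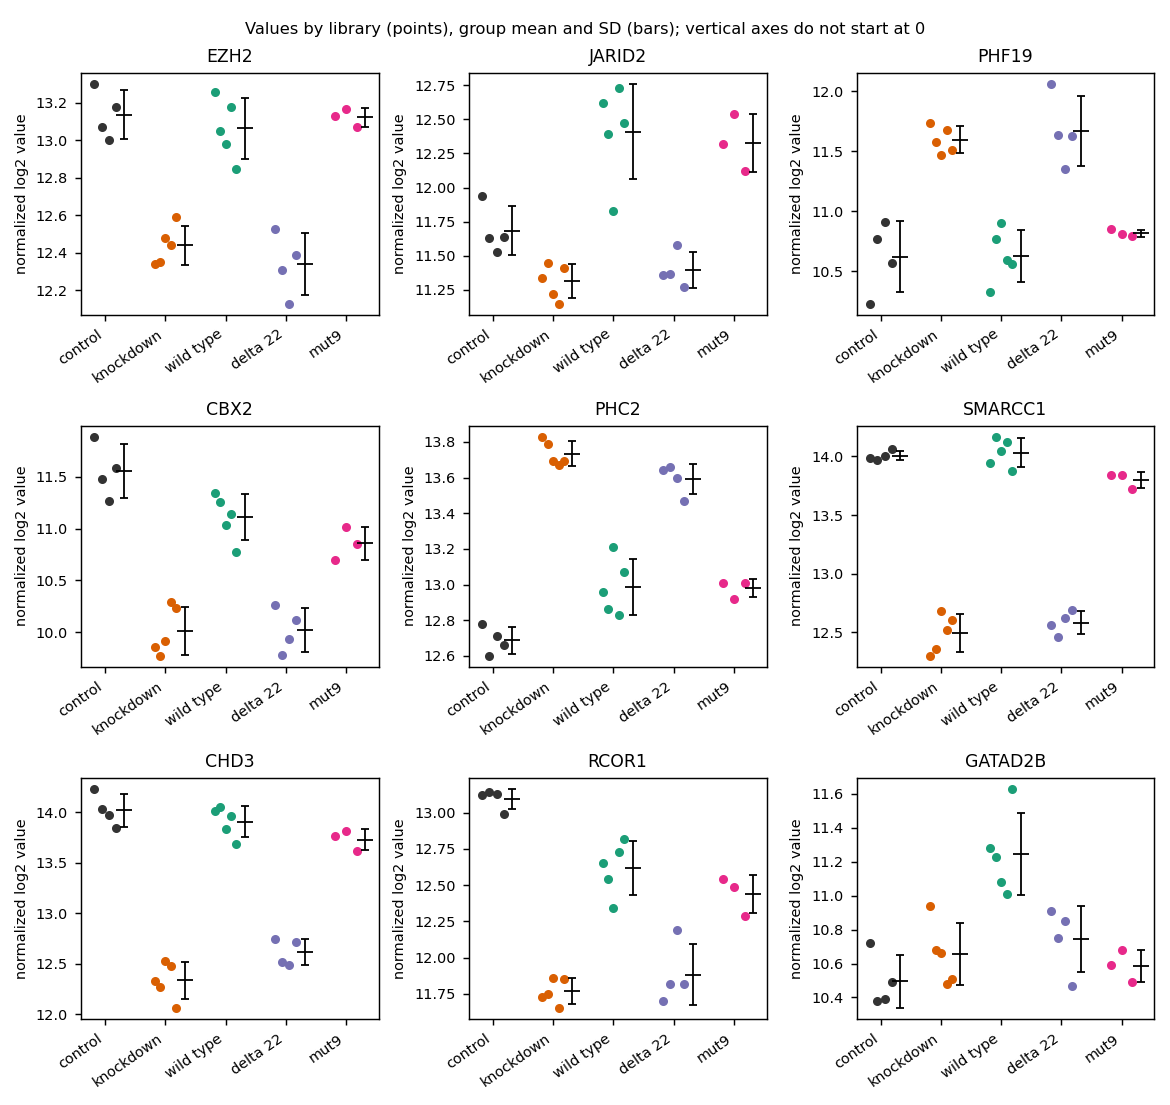
Normalized log2 values of 9 subunit genes in each library (points, coloured by group), with group means and standard deviations beside them; vertical axes do not start at 0. EZH2, CBX2, SMARCC1, CHD3 and RCOR1 are low in knockdown and delta 22 libraries, PHF19 and PHC2 are high there, JARID2 reaches 12.73 in a wild-type library against at most 11.94 in control, and GATAD2B is highest in wild-type libraries.

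Wild type against control asks which subunits the rescue left away from the starting state. No member differed at least 2-fold, against 7.89% of all genes. Of the 53 members 22 were called (41.5%, against 39.6% of all genes and 46.5% of those with a mean of at least 100). Of these 8 were higher (15.1%, against 21.3%) and 14 lower (26.4%, against 18.3%), and the groups did not overlap for 18 members (34%, against 31.2%). Quantile scaling gave 9 higher and 16 lower, beside 17.2% and 23% of all genes. HDAC1, RCOR1 and KDM1A were below control, and GATAD2B, JARID2, ARID1B and DPF2 were above it. Of the called members 21 of 22 had the same sign in all 4 batches, with SMARCD3 the exception, and 15 of 19 proliferation markers were lower and 0 higher (16 lower at an unadjusted p under 0.05).

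HDAC1 lay below control in every wild-type library (-0.87 ± 0.11, adjusted p = 4.81e-06), as did RCOR1 (-0.48 ± 0.10, adjusted p = 0.000582) and KDM1A (-0.30 ± 0.08, adjusted p = 0.00676). RBBP7, from 13.21, 12.99, 12.93 and 12.89 in control to 12.49, 12.61, 12.47, 12.69 and 12.54 in wild-type libraries, was lower too (-0.44 ± 0.07, adjusted p = 6.45e-05). In PRC2 and PRC1, SUZ12 (-0.39 ± 0.09, adjusted p = 0.00185) and CBX7 (-0.56 ± 0.20, adjusted p = 0.0323) were lower without overlap, and CBX2 lower with overlap (-0.45 ± 0.14, adjusted p = 0.0161). Lack of overlap was a condition for choosing SUZ12 and CBX7 here. The call of CBX2 was lost without control replicate 1 or wild-type replicate 5 (adjusted p = 0.0759 and 0.0509), and that of CBX7 without control replicate 3 or 5 or wild-type replicate 1, 2 or 5 (0.0589 to 0.0974). DPF1 (-0.55 ± 0.17, adjusted p = 0.0141) and SMARCB1 (-0.21 ± 0.05, adjusted p = 0.00125) were lower in the BAF family, the first of them not called without control replicate 5 (adjusted p = 0.0573).

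GATAD2B, a NuRD subunit that links MBD proteins to CHD proteins, read 10.72, 10.38, 10.39 and 10.49 in control, 10.94, 10.68, 10.66, 10.48 and 10.51 in knockdown and 11.28, 11.23, 11.08, 11.01 and 11.63 in wild-type libraries. The wild-type libraries were the highest of these groups without overlap (0.75 ± 0.12, adjusted p = 8.12e-05). Separation from control was a condition for choosing GATAD2B here. JARID2 was above control (0.72 ± 0.14, adjusted p = 0.000426), with wild-type replicate 3 at 11.83 below control replicate 1 at 11.94. ARID1B was above control in wild-type libraries, at 12.08, 12.04, 12.03, 11.93 and 12.39 (0.51 ± 0.08, adjusted p = 3.77e-05), and so was DPF2 (0.46 ± 0.07, adjusted p = 4.14e-05). AEBP2 (0.33 ± 0.07, adjusted p = 0.0011) and PHC2 (0.30 ± 0.07, adjusted p = 0.002) were higher by less. EZH2, SMARCC1, CHD3 and CBX8 did not pass, with intervals of -0.25 to 0.11, -0.13 to 0.18, -0.32 to 0.10 and -0.41 to 0.06.

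Delta 22 against knockdown asks whether that mutant moves the subunits. Only PHC1 passed, with 10.03, 9.95, 9.87 and 10.08 in delta 22 and 10.5, 10.42, 10.57, 10.48 and 10.25 in knockdown libraries, and it fell (-0.46 ± 0.08, adjusted p = 0.00268). That is 1.89% of the members, against 4.5% of all genes tested and 5.06% of those with a mean of at least 100. Among all genes 2.24% rose, 2.26% fell and 1.1% changed at least 2-fold, where 0 members rose or reached 2-fold, and the groups did not overlap for 3 members (5.66%, against 8.36%). In limma 0 members of PRC2, of the BAF family and of NuRD/LSD1 passed. At an unadjusted p under 0.05 there were 1, 4 and 2, and 8 of all 53, beside 3511 of all 18040 genes. With the batch number as a block 2 members passed, the second being DPF2 (log2 0.22, adjusted p = 0.014). Of all genes 7.16% passed with that block. EZH2 read 12.53, 12.31, 12.13 and 12.39 (-0.10, 95% interval -0.28 to 0.08, adjusted p = 0.576), SMARCC1 12.56, 12.46, 12.62 and 12.69 (0.09, 95% interval -0.07 to 0.25, adjusted p = 0.557) and CHD3 12.74, 12.52, 12.49 and 12.71 (0.28, 95% interval 0.08 to 0.49, adjusted p = 0.107).

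FLI1 was higher in delta 22 than in wild-type libraries (log2 0.80 ± 0.10, adjusted p = 9.63e-07). Compared with wild type directly, 30 members were lower and 9 higher in delta 22 libraries, 56.6% and 17%, against 29.5% and 31.7% of all genes, and in either direction 73.6% against 61.2% (66.2% of genes with a mean of at least 100). At least 2-fold changes were 13.2% of members and 19.7% of all genes, and the groups did not overlap for 60.4% and 47.3%. Quantile scaling gave 36 lower and 6 higher, beside 37.2% and 26.8% of all genes. SMARCC1 (-1.45 ± 0.08, adjusted p = 1.54e-11), CHD3 (-1.29 ± 0.10, adjusted p = 1.58e-09), CBX8 (-1.10 ± 0.11, adjusted p = 8.19e-08), CBX2 (-1.09 ± 0.14, adjusted p = 1.78e-06) and JARID2 (-1.01 ± 0.14, adjusted p = 3.33e-06) were lower. DPF1 (1.07 ± 0.17, adjusted p = 1.75e-05) and PHF19 (1.04 ± 0.14, adjusted p = 2.21e-06) were higher. All 39 called members had the same sign in each of 4 batches, and 8 of 19 proliferation markers were lower and 1 higher.

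The mut9 construct raised 21 members over knockdown and lowered 7, 39.6% and 13.2%, against 23% and 25.5% of all genes, or 52.8% against 48.6% in either direction (51.4% of genes with a mean of at least 100). At least 2-fold changes were 7.55% of members and 16.8% of all genes, and the groups did not overlap for 54.7% and 46.9%. With quantile scaling 29 rose and 4 fell, so 33 of 53 members were called. Of all genes tested 50.3% were then called in either direction, and 28% rose. Of the 9075 genes called with this scaling 55.7% rose, against 47.4% of those called without the scaling. CHD3 read 13.76, 13.81 and 13.61 (1.40 ± 0.11, adjusted p = 5.56e-09), SMARCC1 13.84, 13.84 and 13.72 (1.31 ± 0.08, adjusted p = 5.07e-10) and CBX8 9.23, 9.31 and 9.01 (1.11 ± 0.12, adjusted p = 5.21e-07), and all rose. JARID2 (1.01 ± 0.15, adjusted p = 1.76e-05), CBX2 (0.84 ± 0.15, adjusted p = 0.000151), EZH2 (0.68 ± 0.09, adjusted p = 8.01e-06) and RCOR1 (0.67 ± 0.10, adjusted p = 2.8e-05) rose as well. PHF19 (-0.78 ± 0.15, adjusted p = 0.000256) and PHC2 (-0.75 ± 0.07, adjusted p = 1.36e-07) fell. KDM1A did not pass (0.18, 95% interval -0.0048 to 0.37, adjusted p = 0.1), though it did with quantile scaling (log2 0.30, adjusted p = 0.0031) and without knockdown replicate 4 (adjusted p = 0.0439). HDAC2 (-0.06, 95% interval -0.20 to 0.07, adjusted p = 0.444) and GATAD2B (-0.07, 95% interval -0.35 to 0.20, adjusted p = 0.682) did not pass. SMARCC2 was called lower only without knockdown replicate 5 (log2 -0.314, adjusted p = 0.00841). Of the 19 proliferation markers 6 rose and 0 fell, and 8 rose at an unadjusted p under 0.05.

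Mut9 against wild type tests the difference between the 2 rescues itself. GATAD2B, ARID1A, DPF2, HDAC2 and ARID1B were lower with mut9, and HDAC1 was higher. In all 10 members were lower and 4 higher, or 26.4% against 18.8% of all genes tested; among genes with a mean of at least 100 it was 22.9%. Of the members 18.9% were lower and 7.55% higher, against 7.61% and 11.2% of all genes, 0 reached 2-fold (3.38% of all genes), and the groups did not overlap for 35.8% against 23.8%. With quantile scaling 13 were lower and 2 higher, beside 11.7% and 9.14% of all genes. Without mut9 replicate 3 only 7 of the 14 stayed called (ARID1A, ARID1B, DPF2, HDAC2, GATAD2A, GATAD2B and MBD2). In batches 3 to 5 alone 8 did, and there 9.67% of all genes were called. All 14 had the same sign in each of the 3 batches with both groups, and 2 of 19 proliferation markers were lower and 0 higher (3 at an unadjusted p under 0.05).

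GATAD2B read 10.59, 10.68 and 10.49 in mut9 libraries, all below the wild-type libraries (-0.66 ± 0.13, adjusted p = 0.00207). DPF2 read 11.99, 11.97 and 12.18 (-0.44 ± 0.08, adjusted p = 0.000635) and HDAC2 12.64, 12.72 and 12.64 (-0.44 ± 0.07, adjusted p = 0.000225), again below every wild-type library. ARID1A read 11.58, 11.59 and 11.67 (-0.44 ± 0.11, adjusted p = 0.00679) and ARID1B 11.61, 11.68 and 11.72 (-0.43 ± 0.08, adjusted p = 0.00182). For all 5 genes the mut9 and wild-type libraries did not overlap, which was a condition for choosing GATAD2B and DPF2 here.

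HDAC1 read 13.0, 12.98 and 12.87 in mut9 libraries and was higher than with wild type (0.45 ± 0.12, adjusted p = 0.0116). In PRC2, MTF2 was lower (-0.40 ± 0.12, adjusted p = 0.0259) and PHF1 higher (0.24 ± 0.08, adjusted p = 0.0394), and neither call stayed without mut9 replicate 3 (adjusted p = 0.126 and 0.0896). Leaving out mut9 replicate 5 or wild-type replicate 1 also ended the call of MTF2 (0.0751 and 0.0602), and mut9 replicate 4 or 5 or wild-type replicate 1, 4 or 5 that of PHF1 (0.0507 to 0.127). The call of HDAC1 was lost without mut9 replicate 3 or 4 (adjusted p = 0.0571 and 0.051). In limma 0 of 8 PRC1 members passed, and 1 had an unadjusted p under 0.05. CBX7 passed without mut9 replicate 5 (log2 0.90, adjusted p = 0.00932) or wild-type replicate 3 (0.0461), and BMI1 without the latter (0.041). For EZH2 (0.06, 95% interval -0.14 to 0.26, adjusted p = 0.723), SMARCC1 (-0.23, 95% interval -0.40 to -0.06, adjusted p = 0.0545) and CHD3 (-0.18, 95% interval -0.40 to 0.04, adjusted p = 0.266) no difference passed the threshold. SMARCC1 did pass with the batch number as a block (log2 -0.28, adjusted p = 0.0208), while PBRM1 and SMARCD3 no longer did (adjusted p = 0.0556 and 0.0555). SMARCC1 also passed without wild-type replicate 5 (0.0318), with quantile scaling (0.0315) or trimmed-mean rescaling (0.0448), and among genes with a mean of at least 100 (0.0443). KDM1A was lower with quantile scaling (log2 -0.27, adjusted p = 0.019) and without wild-type replicate 5 (0.0481).

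**Figure D3:**
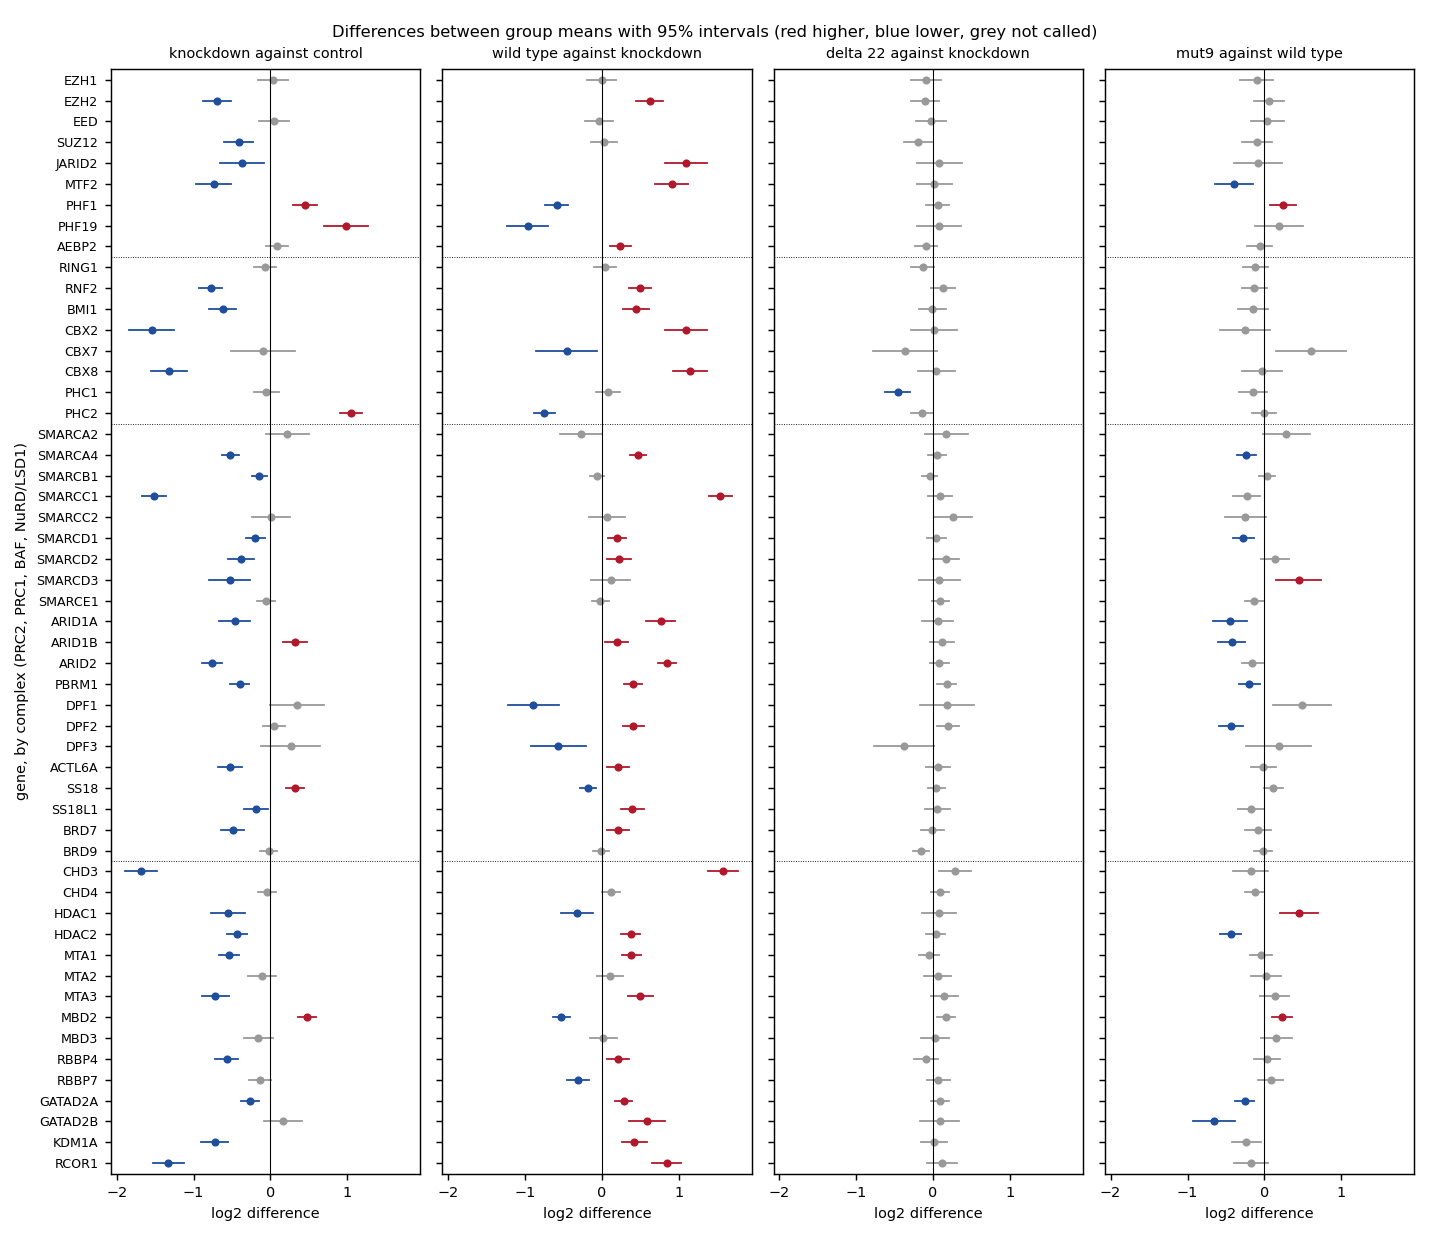
Log2 differences of the 53 subunit genes with 95% intervals in 4 comparisons, ordered by complex from top to bottom (red, higher; blue, lower; grey, not called). Most coloured points lie left of 0 for knockdown against control (29 of 35) and right of 0 for wild type against knockdown (29 of 39); 1 point is coloured for delta 22 against knockdown and 14 for mut9 against wild type.

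Paralogous subunits take the same place in a complex, so their log2 difference within a library was followed, with the control mean set to 0; gene length cancels in this measure and no test was made. The CHD4 to CHD3 ratio was 1.44 to 1.97 in knockdown and 1.38 to 1.56 in delta 22 libraries. It was 0.01 to 0.45 in wild-type and 0.19 to 0.32 in mut9 libraries, with control at -0.13 to 0.3. Every knockdown and delta 22 library lay above all control, wild-type and mut9 libraries.

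SMARCC1 relative to SMARCC2 was -1.85 to -0.88 in knockdown, -0.24 to 0.15 in wild-type, -1.93 to -1.46 in delta 22 and -0.18 to 0.16 in mut9 libraries. The -0.88 is knockdown replicate 5, and the other knockdown libraries lay at -1.85 to -1.45. PHC1 relative to PHC2 was -1.25 to -0.93 in knockdown and -1.54 to -1.2 in delta 22 libraries, and -0.49 to -0.11 with wild type. EZH2 relative to EZH1 was -0.96 to -0.49 in knockdown, -1.23 to -0.49 in delta 22 and -0.41 to 0.33 in wild-type libraries. In these 3 pairs the knockdown and delta 22 libraries lay below all control libraries.

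A pair of ratios set wild-type libraries apart. HDAC1 relative to HDAC2 was -1.15 to -0.6 with wild type, against -0.27 to 0.03 in knockdown, 0.02 to 0.15 in mut9 and -0.35 to 0.15 in control libraries. DPF2 relative to DPF1 was 0.6 to 1.71 with wild type, against -0.48 to 0.14 in knockdown and 0.02 to 0.14 in mut9 libraries. ARID1A relative to ARID1B was -0.31 to -0.1 with wild type and -0.27 to -0.2 with mut9, where both genes were lower.

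**Figure D4:**
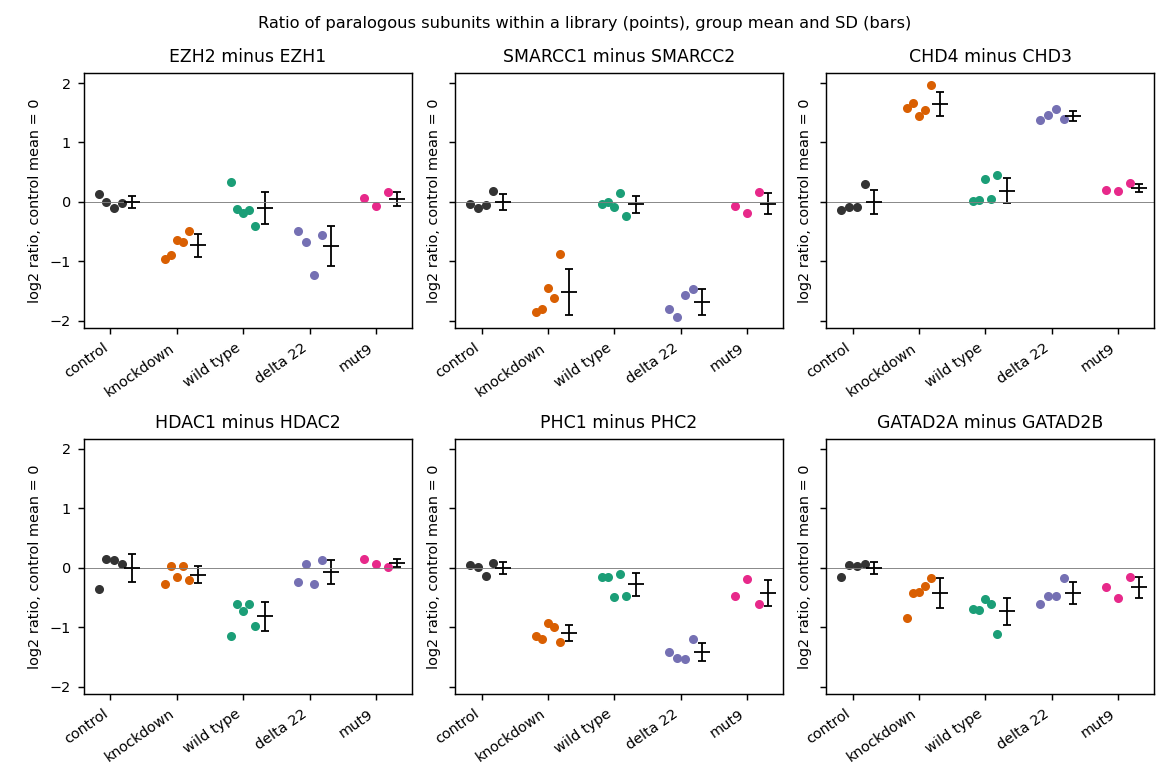
Log2 ratio of 6 pairs of paralogous subunits within each library (points, by group), relative to the control mean of 0, with group means and standard deviations beside them. CHD4 minus CHD3 lies between 1.38 and 1.97 in knockdown and delta 22 libraries, and HDAC1 minus HDAC2 lies between -1.15 and -0.6 in wild-type libraries.

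Other subunits of the same complexes were read from lists written out in full. Of 23 tested further Polycomb genes, 11 fell and 4 rose after knockdown, with a median difference of -0.10, and 12 rose and 3 fell with wild type. Of 20 tested further BAF, NuRD and LSD1 genes, 7 fell and 7 rose after knockdown (median 0.12), and 6 rose and 9 fell with wild type. Delta 22 lowered 1 of the former and changed 0 of the latter relative to knockdown in limma, with 5 and 2 at an unadjusted p under 0.05. The share called with delta 22 was 4.35% and 0%, beside 4.5% of all genes. Of all 18040 genes, 3511 had an unadjusted p under 0.05 there. The share called after knockdown was 65.2% and 70% for these lists, beside 69.5% for all genes, and with wild type 65.2% and 75%, beside 61.8%.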

How the data were processed

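RNA of 21 A673 libraries was sequenced from 2.5 ug of total RNA with ScriptSeq, per the labels' protocols. The submitters' processing notes name bcl2fastq, STAR 2.5.2b, HTSeq, DESeq2 and build hg19; annotation and strand setting are not given in the sources used here. The authors deposited normalized log2 values of 57820 genes, from -4.1 to 20.2; the log2 scale is read from the values, as no header names it. Values of this form draw low genes towards their mean, read totals are not kept, and 17358 genes are listed at 0 in every library.

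Symbols were joined through a table of gene identifiers (51996 matched, 5824 did not). Genes reaching 10 on the linear scale in at least 3 libraries (18040) were fitted with limma 3.58.1 in R 4.3.3 (1 mean per group over all 21 libraries, intensity trend, 16 residual degrees of freedom), with Benjamini-Hochberg adjustment. The script was tested on simulated data. The members and lists were chosen with earlier results of these data known. The 30 members chosen by rule for closer description were a set central to each complex and further ones per complex and comparison. The latter had the largest differences among called members whose groups did not overlap. No pair of libraries was identical (highest correlation 0.9978).

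The labels give the replicate number as the batch, so the numbers pair the samples: deviations from group means correlated at 0.2 on average in 34 pairs with the same number (24 over 0.1) and at -0.049 in 141 other pairs. Also tried were testing without a filter (40462 genes) or with a linear mean of 100 or more (12166 genes), quantile scaling, trimmed-mean rescaling, the replicate block, only the groups compared, batches 3 to 5, and leaving out each library.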

Additional observations from a re-analysis of the deposited data

Results flagged for a closer look

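In groups of at least 4, a single library stood apart from the others of its group in 4 of 120 combinations of a group and one of the 30 members chosen by rule for closer description, where chance gives about 1 in 20. SMARCA4 read 13.72 in delta 22 replicate 1 and 13.48 to 13.49 in the other delta 22 libraries. DPF1 read 6.46 in wild-type replicate 2 and 7.12 to 7.36 in the others. HDAC2 read 13.37 in control replicate 1 and 13.08 to 13.1 in the others. RCOR1 read 12.99 in control replicate 5 and 13.12 to 13.14 in the others.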

How the results depend on the processing

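The count of members called stayed within 1.5 times in the filters, scalings, fits and left-out libraries tried for knockdown against control, wild type against knockdown, wild type against control, delta 22 against wild type and mut9 against knockdown. Delta 22 against knockdown gave 2 calls with the replicate block and 1 to 2 with a library left out; the second was DPF2 and, without delta 22 replicate 3, MBD2 (log2 0.23, adjusted p = 0.0127). Mut9 against wild type gave 7 to 16 calls with a library left out (7 without mut9 replicate 3) and 8 in batches 3 to 5 only. Of all genes 9.67% were called in those batches, against 18.8% in the main fit. With quantile scaling 2 values that the main fit did not call changed sign. CHD4 for mut9 against knockdown (means 14.35 and 14.36 before) went to 0.17 (adjusted p = 0.036). SMARCB1 for delta 22 against wild type (means 12.26 and 12.23 before) went to -0.15 (adjusted p = 0.0164). The cause was not tested. That scaling shifted the median of all genes by -0.195 for knockdown against control, by 0.114 for wild type against knockdown and by less elsewhere. It left ARID1B at 0.19 and SMARCB1 at -0.25 for knockdown against control, RBBP7 at -0.18 for wild type against knockdown, and KDM1A at -0.20 and CBX7 at -0.85 for wild type against control, all still called. It gave 31 further single calls and lost 12. The paired fit with the replicate block gave 36, 39, 2, 28, 25, 13 and 40 calls, for knockdown against control, wild type, delta 22 and mut9 against knockdown, wild type against control, and mut9 and delta 22 against wild type, adding 8 single calls and losing 3. In the same order it called 71.9%, 65.3%, 7.16%, 51.1%, 45.1%, 21.6% and 63.7% of all genes. Depth is unknown, so precision rests on the spread between 3 to 5 libraries a group.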

Other observations

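Chromatin regulators outside the 3 families were read from lists of their own. Of 14 tested genes of the trithorax-group methyltransferases, their core partners and demethylases of the Polycomb mark, 9 fell and 1 rose after knockdown, 9 rose and 0 fell with wild type, and 0 changed with delta 22 in limma (at an unadjusted p under 0.05, 9 with wild type and 1 with delta 22). The share called after knockdown was 71.4%, beside 69.5% of all genes tested, and with wild type 64.3%, beside 61.8%. With delta 22 it was 0%, beside 4.5%. Of 21 tested ATP-dependent remodellers of other families, 11 fell and 2 rose after knockdown and 16 rose and 1 fell with wild type. The share of these remodellers called was 61.9% and 81%, beside 69.5% and 61.8% of all genes. Between mut9 and wild type, 8 of these 21 remodellers were lower and 1 higher (42.9% called, beside 18.8% of all genes), and 4 of the 14 methyltransferase and demethylase genes were lower and 0 higher (7 lower at an unadjusted p under 0.05).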
